A study of Rattus norvegicus with 19 samples.

Results

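The interferon-stimulated genes described here are 9 genes that cells switch on in answer to interferon: Irf7, Stat2 and Irf9, which regulate transcription, Isg15 and Usp18, which act in protein modification, and Mx1, Mx2, Ifit3 and Oas1a, which act against viruses. They were chosen by symbol, as the probe sets annotated to these names, and are 9 of 14217 genes (12 of 31099 probe sets) measured in the left ventricle of 19 rats. All rats were male Dahl salt-sensitive (Harlan SS/Hsd) animals, which become hypertensive when fed salt, and all ate 6% NaCl from 6 weeks of age. After 5 weeks of that diet 4 groups were treated for 4 weeks and taken at 15 weeks of age. These were 4 rats given paricalcitol, a drug that activates the receptor of vitamin D, at 200 ng per intraperitoneal injection and 3 injections a week. A further 3 rats received enalapril, an inhibitor of angiotensin-converting enzyme, at 90 ug a day from an osmotic pump, with vehicle injections. The combination group (4 rats) received both drugs, and the vehicle group (4 rats) only the injections of vehicle. The baseline group (4 rats) was taken untreated at 11 weeks of age, after 5 weeks of the diet. All of them carried the salt load, and no group on normal salt is analysed here. Rats are numbered in the labels by group in separate runs, and a cohort effect cannot be told apart from a group effect.

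Interferons are secreted when sensors inside a cell meet nucleic acid of a virus, or of the cell itself where it does not belong. Type I interferon binds a receptor made of IFNAR1 and IFNAR2, the kinases JAK1 and TYK2 then phosphorylate STAT2, which acts with IRF9 in the factor ISGF3. ISGF3 binds a short element, the interferon-stimulated response element (ISRE), in front of its target genes, and the 9 genes are among those targets. In the heart the programme is known from viral myocarditis and from macrophages that take up debris after infarction.

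The start of each gene was searched for the core of that element, GAAANNGAAA, on both strands (the other strand reads TTTCNNTTTC), in 300 bases of RefSeq sequence on the build GRCr8, from 250 before to 50 after the annotated start. RefSeq promoters were matched by symbol for 6 of the 9 genes; Isg15, Mx2 and Usp18 were not matched. The core was present in 3 of these 6 promoters, Irf7, Ifit3 and Oas1a, against 3.92% of 33469 promoters of the same length and 58.7% of 46 promoters of other interferon-stimulated genes. Those 3 sequences are shown as the matched promoters that hold this core, with its matches in capitals. They come from the reference genome, not from these rats, and a match of letters is a description, not a measured binding site. Irf7 lies at chr1:205799974-205800273 (minus strand), Ifit3 at chr1:241527076-241527375 (plus strand) and Oas1a at chr12:41330216-41330515 (plus strand).
Irf7: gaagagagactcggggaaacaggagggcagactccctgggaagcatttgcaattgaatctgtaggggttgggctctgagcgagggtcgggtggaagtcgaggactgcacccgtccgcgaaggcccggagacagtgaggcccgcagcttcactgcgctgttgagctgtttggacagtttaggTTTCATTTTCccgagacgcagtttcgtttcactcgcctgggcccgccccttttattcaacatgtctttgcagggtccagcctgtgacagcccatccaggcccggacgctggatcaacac
Ifit3: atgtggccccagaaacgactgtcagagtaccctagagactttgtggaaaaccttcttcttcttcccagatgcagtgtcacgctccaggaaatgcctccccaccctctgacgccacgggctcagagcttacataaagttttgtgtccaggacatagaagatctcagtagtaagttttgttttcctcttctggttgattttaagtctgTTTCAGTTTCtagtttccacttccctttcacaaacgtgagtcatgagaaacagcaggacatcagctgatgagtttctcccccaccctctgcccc
Oas1a: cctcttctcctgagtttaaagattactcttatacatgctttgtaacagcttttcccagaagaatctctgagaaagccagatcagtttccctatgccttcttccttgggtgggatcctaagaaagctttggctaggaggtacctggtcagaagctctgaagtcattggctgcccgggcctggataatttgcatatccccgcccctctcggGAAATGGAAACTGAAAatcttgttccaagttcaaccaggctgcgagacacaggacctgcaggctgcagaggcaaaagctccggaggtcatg
In Irf7 the match begins at position -69 relative to the annotated start, and in Ifit3 at -44, both on the strand opposite to the gene. Oas1a holds 2 overlapping matches on its own strand, at -41 and -35. Of all promoters 0.266% held 2 or more matches, counted on either strand and at any spacing. The promoters of Mx1, Stat2 and Irf9 that were matched held none in this window.

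Levels are given as log2 of the normalised intensity plus 16, a scale whose floor is 4, so that a difference of 1 corresponds to a doubling and changes of dim genes are understated. Differences between groups, with standard errors (SE), come from limma over all 14217 genes, and a gene passed at a Benjamini-Hochberg adjusted p under 0.05. The labels call the 19 samples separate rats, and the number of arrays limits the precision. Array medians of the deposited intensities lay between 43.6 and 72.6, and 16% to 18.2% of values on an array were below 0. Of the 10 listed cardiomyocyte markers 9 were measured, all at or above percentile 99 of the genes.

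None of the 9 genes passed in any of the 10 comparisons or in the moderated F test over the 5 groups, in which 0.127% of all genes passed. The paricalcitol group had the lowest mean of the 5 groups for 8 of the 9 genes, where 19.2% of all genes had their lowest mean. Irf9 was the exception, with its lowest mean in the vehicle group. The 9 genes rose and fell together within groups (median Pearson's r 0.60 over their pairs, given below). Counts over the 9, here and in what follows, are therefore not of independent genes. In the F test the smallest adjusted p-values belonged to Usp18 (F 4.24, adjusted p = 0.344) and Irf7 (F 3.39, adjusted p = 0.428). These were the 2 of the 9 with an unadjusted p under 0.05, where 10.5% of all genes did. Group means accounted for 53.2% of the variance of Usp18 over the arrays and for 47.5% of that of Irf7, but for 14.2% of that of Ifit3. The median over all genes was 23.6%.

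**Figure D1:**
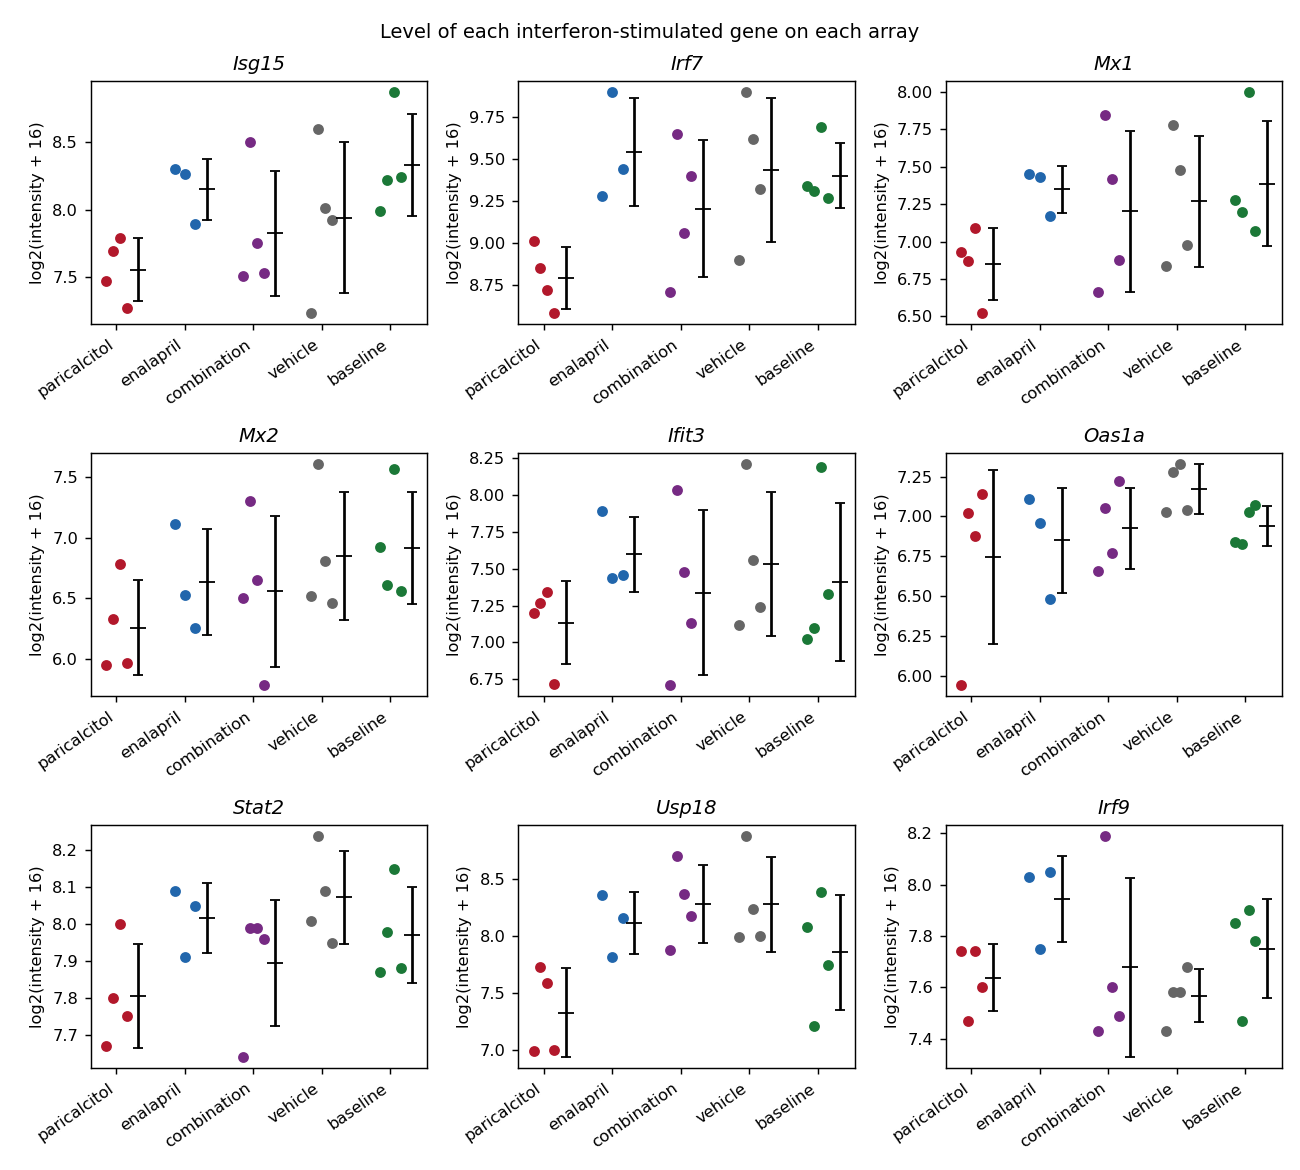
Level of each of the 9 genes on each array, as log2 of normalised intensity plus 16 (vertical axes, each with its own range), by group; points are rats, and the bars beside them give the mean and SD (n = 4, enalapril n = 3). Usp18 lies between 6.99 and 7.73 in the 4 paricalcitol rats, below all 4 vehicle rats (7.99 to 8.88), and rat 2 is the highest vehicle point for every gene but Oas1a and Irf9.

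Usp18, a protease that strips ISG15 from proteins and also restrains signalling at the type I receptor, had the largest difference. It was at 6.99, 7.73, 7.59 and 7.0 in the 4 paricalcitol rats, against 7.99, 8.88, 8.24 and 8.0 in the 4 vehicle rats. All 4 paricalcitol values lay below every vehicle value. The combination rats had 7.88, 8.70, 8.37 and 8.18, the enalapril rats 8.36, 7.82 and 8.16, and the baseline rats 8.08, 7.21, 8.39 and 7.75. These 3 groups overlapped with vehicle, and baseline rat 2 lay within the paricalcitol range. The difference of paricalcitol against vehicle was -0.95 (SE 0.27), a fold of 0.516, with a 95% interval from -1.54 to -0.37 (adjusted p = 0.256). In the combination against paricalcitol it was 0.96 (SE 0.27, adjusted p = 0.271), again without overlap. The combination against vehicle gave 0.00 (SE 0.27), with an interval from -0.58 to 0.59. The interaction of the drugs, the combination minus both single drugs plus vehicle, was 1.12 (SE 0.40, adjusted p = 0.607). The comparison of the combination with paricalcitol and the interaction contain the same paricalcitol rats, so they are not separate evidence for the low values.

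Isg15 encodes the ubiquitin-like protein that USP18 removes. The paricalcitol rats had 7.47, 7.69, 7.79 and 7.27, against 7.23, 8.60, 8.01 and 7.92 in vehicle rats. Vehicle rat 1 was the lowest of all 19 and vehicle rat 2 among the highest, so the groups overlapped, and the difference was -0.39 (SE 0.28, adjusted p = 0.698). Enalapril rats had 8.30, 8.26 and 7.89, combination rats 7.51, 8.5, 7.75 and 7.53, and baseline rats 7.99, 8.22, 8.87 and 8.24. Its order of means was baseline, enalapril, vehicle, combination and paricalcitol, and no step between neighbours in that order reached the pooled SD of 0.40. Against baseline, paricalcitol gave -0.78 (SE 0.28, adjusted p = 0.529), with all 4 paricalcitol rats below all 4 baseline rats.

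Irf7 is the factor that amplifies interferon production once the response has begun. Its levels were 9.01, 8.85, 8.72 and 8.58 in paricalcitol rats, against 8.90, 9.90, 9.62 and 9.32 in vehicle rats. Only vehicle rat 1 reached into the paricalcitol range. The difference was -0.65 (SE 0.22, interval -1.12 to -0.17, adjusted p = 0.347). Baseline rats had 9.34, 9.31, 9.69 and 9.27, which put all 4 above the paricalcitol rats, with a difference of paricalcitol against baseline of -0.61 (SE 0.22, adjusted p = 0.541). Enalapril rats, at 9.28, 9.90 and 9.44, had the highest mean (9.54 ± 0.32, SD, n = 3). Combination rats spread from 8.71 in rat 1 to 9.65 in rat 2, over most of the range seen in the other groups.

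Stat2 and Irf9 encode subunits of ISGF3, and the order of their group means differed. Stat2 was at 7.67, 7.80, 8.0 and 7.75 in paricalcitol rats, against 8.01, 8.24, 8.09 and 7.95 in vehicle rats, an overlap of 1 value from each side. This gene varied least, with a pooled SD of 0.14, and its difference of -0.27 (SE 0.10, interval -0.47 to -0.06, adjusted p = 0.36) was small. Its second probe set, at a lower level, gave -0.17 (SE 0.26). Irf9 had 7.74, 7.47, 7.74 and 7.60 in paricalcitol rats and 8.03, 7.75 and 8.05 in enalapril rats, against 7.43, 7.58, 7.58 and 7.68 in vehicle rats. The enalapril values all lay above the vehicle values, with a difference of 0.38 (SE 0.16, interval 0.04 to 0.71, adjusted p = 0.83). The second Irf9 probe set gave 0.18 (SE 0.17) for the same comparison, with enalapril at 7.20 to 7.40 and vehicle at 7.02 to 7.24.

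Among the antiviral effectors, Mx1 and Mx2 encode dynamin-like GTPases that block virus replication, and Ifit3 encodes a partner of RNA-binding IFIT proteins. Mx1 was at 6.93, 6.87, 7.09 and 6.52 in paricalcitol rats, against 6.84, 7.78, 7.48 and 6.98 in vehicle rats, a difference of -0.42 (SE 0.27, adjusted p = 0.659). Ifit3 was at 7.20, 7.27, 7.34 and 6.72, against 7.12, 8.21, 7.56 and 7.24, a difference of -0.40 (SE 0.31, adjusted p = 0.73). Mx2 ranged from 5.95 to 6.78 in paricalcitol rats, against 6.46 to 7.61 in vehicle rats, a difference of -0.60 (SE 0.34, adjusted p = 0.623). All 3 genes overlapped between the groups, and in each rat 2 had the highest vehicle value. The second probe set of Mx2 lay near the floor (mean 5.30), gave -0.02 (SE 0.26) and followed the first only loosely over the arrays (r = 0.16, where r was 0.73 for Stat2 and 0.53 for Irf9). Oas1a encodes an oligoadenylate synthetase, which senses double-stranded RNA, and belongs to a family of near-identical rat copies that its probe set may not separate. It ranged from 5.94 to 7.14 in paricalcitol rats, against 7.03 to 7.33 in vehicle rats, with a difference of -0.42 (SE 0.22, adjusted p = 0.583). Its paricalcitol mean was set by rat 1 at 5.94, since the other 3 had 6.88 to 7.14.

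Counted over the 9 genes, 8 were lower in paricalcitol than in vehicle (45.9% of all genes were), with a median difference of -0.42, against 0.00 over all genes. None passed (0.0141% of all genes did). Usp18, Irf7 and Stat2 were lower with an unadjusted p under 0.05 (4.8% of all genes), and Usp18 was lower without overlap (2.55% of all genes). The median was -0.25 without vehicle rat 2 and -0.56 without vehicle rat 1, and 8 genes were lower after each of the 8 omissions. Their shared direction is not that of independent genes, since the 9 moved together within groups (median r 0.60). In bulk tissue, fewer cells of a type and less RNA per cell cannot be told apart. A summed level is the log2 of the markers' added linear intensities, so the brightest genes lead it. For macrophage markers (15 of 15 measured) it was 12.38 to 13.48 in paricalcitol rats, against 12.73 to 13.05 in vehicle rats. All of them but Cd163 (-0.17, SE 0.44) were higher in paricalcitol (49.4% of all genes were), from 0.05 (SE 0.29) for Lyz2 to 0.58 (SE 0.38) for Ms4a7. T cell markers (10 of 12) had 8.16 to 8.59, against 7.91 to 8.36, with differences from -0.37 (SE 0.41) for Cd8b to 0.47 (SE 0.31) for Cd2. Neutrophil markers (6 of 8) had 8.68 to 11.09 in paricalcitol rats, the highest being rat 4, against 9.10 to 9.90 in vehicle rats. All of these but Cxcr2 (-0.1, SE 0.06) were higher in paricalcitol (49.4% of all genes were), from 0.03 (SE 0.69) for S100a9 to 0.35 (SE 0.59) for S100a8. Of the smooth muscle and pericyte markers 12 of 12 were higher in paricalcitol (49.4% of all genes were), with a median of 0.26. They ran from 0.01 (SE 0.11) for Des to 0.59 (SE 0.24) for Tagln, with a summed level of 13.94 to 14.10, against 13.88 to 13.94. Of the red cell markers 6 of 6 were lower (45.9% of all genes were), with a median of -0.16. They ran from -0.49 (SE 0.60) for Ahsp to -0.05 (SE 0.51) for Slc4a1, with a summed level of 13.84 to 14.57, against 14.27 to 14.57. Endothelial markers (11 of 12 measured) were higher in paricalcitol for 10 of 11 (49.4% of all genes), with a median of 0.12. Their summed level did not overlap, at 12.99 to 13.25 in paricalcitol rats, against 12.86 to 12.95 in vehicle rats. None of these markers passed (0.0141% of all genes did). No macrophage, T cell or neutrophil marker was at the floor on all 19 arrays, though Itgam was on 13, Cxcr2 on 14 and Trat1 on 11. The part of these cell types in the lower values was not tested.

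**Figure D2:**
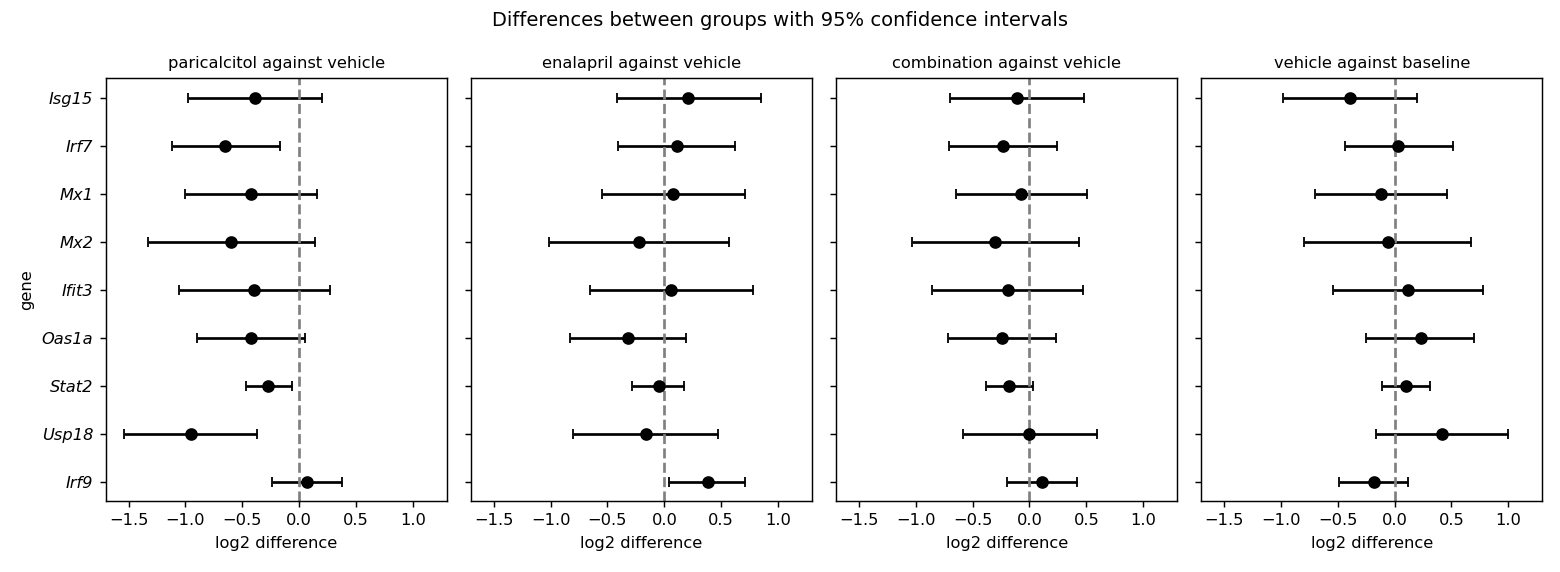
Log2 difference (horizontal axis) of each of the 9 genes in 4 comparisons, with 95% confidence intervals from limma; the dashed line marks no difference. In paricalcitol against vehicle 8 points lie left of the line, and the intervals of Irf7, Stat2 and Usp18 do not cross it; in combination against vehicle 7 lie left of it at smaller distances, and in enalapril against vehicle and vehicle against baseline the points lie on both sides.

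Enalapril against vehicle showed no common direction. Of the 9 genes 5 were higher (53.4% of all genes were) and 4 lower, with a median of 0.06 (all genes 0.00), and none passed (0% of all genes). Differences ran from -0.32 for Oas1a to 0.38 for Irf9, which was the 1 gene without overlap (4.33% of all genes were higher without overlap). In deposited values that were not equalised between arrays the median of all genes itself moved by 0.17 here, and that of the 9 genes was 0.27. The intervals of Isg15 (-0.42 to 0.85), Mx2 (-1.01 to 0.57) and Ifit3 (-0.65 to 0.78) reach well to both sides of 0. Every gene counted here as higher (53.4%) or lower (46.6%), even those at the floor on all 19 arrays. The other comparisons with enalapril and the interaction were counted alike. These shares of all genes are thus not on the same footing as those between groups of 4 rats.

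The combination set against vehicle gave 7 lower and 2 higher (44.6% of all genes were lower), none past the threshold (0.00703% of all genes). With cyclic loess, or each array centred on its median, 8 were lower. The median was -0.18, and 0.03 without vehicle rat 2. The differences were all modest, from -0.30 for Mx2 to 0.11 for Irf9. Against enalapril, the combination was lower for 7 genes (50.2% of all genes), with none passing (0% of all genes). The median was -0.15, and moved to -0.05 without combination rat 1 and to -0.36 without combination rat 2. Against paricalcitol, all 9 genes were higher in the combination (48.2% of all genes were), with a median of 0.27, and none passed (0% of all genes). Apart from Usp18, the only gene without overlap (2.04% of all genes), the differences were 0.04 to 0.41. Without combination rat 2 the median was 0.06. The paricalcitol rats here are those compared with vehicle above, so this count is not separate evidence. The interaction term was positive for 8 genes (48.6% of all genes) with a median of 0.27, none passing (0% of all genes), and in deposited values without equalisation 5 were positive with a median of 0.04, where the median of all genes was -0.14.

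Baseline was the other reference, and age, diet time and injections differ between it and the treated groups. Vehicle against baseline gave 5 genes higher (47.1% of all genes were) and 4 lower, with a median of 0.03 (all genes 0.00), none passing (0.0844% of all genes). The largest were Usp18 at 0.42 (SE 0.27) and Isg15 at -0.39 (SE 0.28), in opposite directions. Paricalcitol against baseline gave all 9 lower (47.5% of all genes), with a median of -0.53 and none passing (0.0281% of all genes). Isg15 and Irf7 were the genes without overlap (1.76% of all genes), as described above. Without baseline rat 3 the median was -0.33. The paricalcitol rats are again those compared with vehicle, so this count is not separate evidence. In enalapril against baseline 4 were lower (47.3% of all genes), with a median of 0.05 and none passing (0.0141% of all genes). In the combination against baseline 8 were lower (46.8% of all genes), with a median of -0.08 and none passing (0.162% of all genes). In deposited values without equalisation the median of all genes was -0.20 in vehicle against baseline and -0.17 in paricalcitol against baseline, and that of the 9 genes -0.18 and -0.73. In the combination against baseline it was -0.14, and that of the 9 genes -0.29; this median was also -0.31 without combination rat 2 and 0.01 without combination rat 1.

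Rats of the same group could differ widely in these genes. With each gene taken as its deviation from its mean over the 19 arrays, and the 9 averaged, the paricalcitol rats had -0.45, -0.22, -0.12 and -0.50, all below 0. The enalapril rats had 0.29, 0.11 and 0.00, and the combination rats -0.37, 0.47, 0.01 and -0.16. The vehicle rats had -0.22, 0.56, 0.19 and -0.05, and the baseline rats 0.02, -0.12, 0.53 and 0.00. Within vehicle, combination and baseline, 1 rat each stood high (vehicle 2, combination 2 and baseline 3), and no paricalcitol or enalapril rat reached those values. In combination 2, baseline 3 and enalapril 1 all 9 genes were above their own means, in vehicle 2 there were 8, and in combination 1 there were 0. The within-group SD ranged from 0.15 in enalapril to 0.36 in the combination, with 0.18 in paricalcitol and 0.34 in vehicle.

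**Figure D3:**
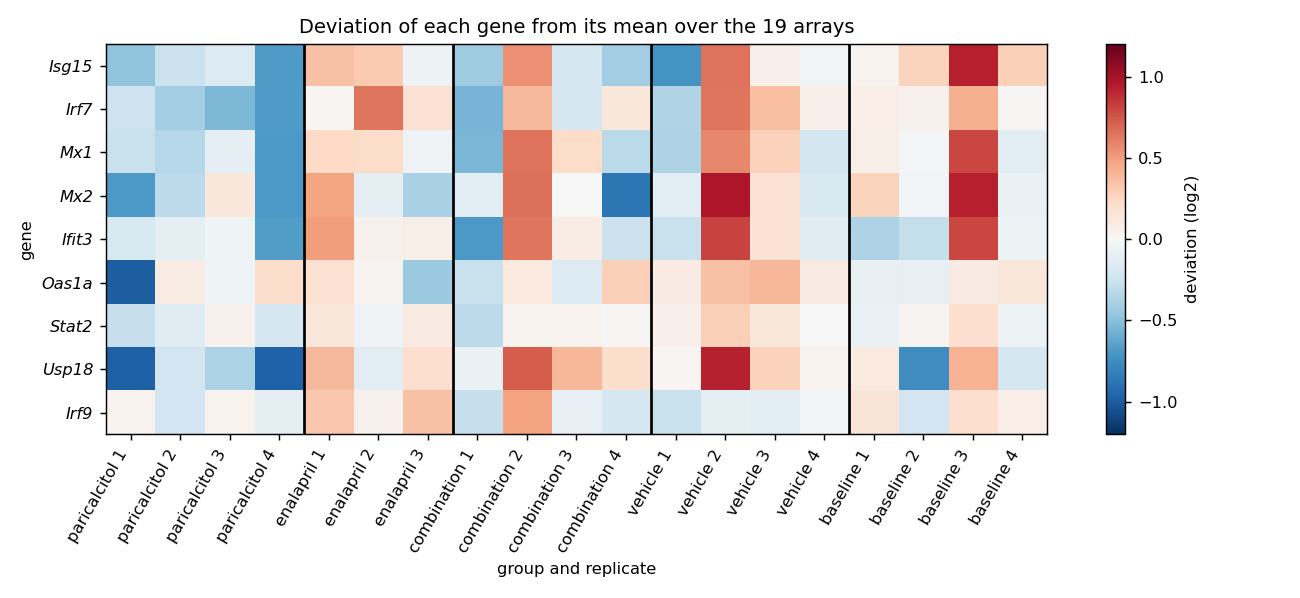
Deviation of each gene (rows) from its own mean over the 19 arrays, on the log2 scale, for every rat (columns, by group); red is above and blue below the mean. Vehicle 2, combination 2 and baseline 3 are red in nearly every row and paricalcitol 1 and 4 blue in most, while Oas1a and Irf9 follow the other rows less closely.

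These swings were shared. After each group's mean was removed, the 36 pairs of the 9 genes had a median Pearson's r of 0.60 over the 19 arrays (from -0.04 to 0.93), and 35 were above 0. Over all pairs among 11255 genes with a mean level of 5 or more the median was 0.00, and 2.88% of pairs reached 0.60. The closest pair was Mx1 with Ifit3 (0.93), followed by Isg15 with Ifit3 (0.90) and with Mx1 (0.89). Ifit3 and Mx1 had the highest mean r with the other 8 (0.71 and 0.70), Irf9 had 0.44, and Oas1a the lowest at 0.22, with its 1 negative pair formed with Irf9. Spearman's rho had a median of 0.54 (from -0.10 to 0.91). Vehicle 2 and combination 2 were the rats whose mean of the 9 lay farthest from that of their own group. Without them the median r over the remaining 17 arrays, baseline 3 among them, was 0.48 (from -0.20 to 0.89), and 34 pairs were above 0. Each point of these correlations is 1 array, so genes share whatever affects that array.

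Genes outside the list that moved most like it were ranked by r between each gene and the mean of the 9, again within groups. Among 11246 genes the median r was 0.02. The 10 highest were Gbp2 (0.933), a guanylate-binding GTPase induced by interferon gamma, Ifit2 (0.93), an IFIT protein, Rtp4 (0.921), Ifi44l (0.908), Irgm2 (0.883), an immunity-related GTPase, Herc6 (0.875), Ly6e (0.875), Znfx1 (0.872), Ifgga2l1 (0.871) and Igtp (0.867). Of these, 5 stood in the list of other genes induced by type I interferon. That list as a whole (38 genes at a level of 5 or more) had a median r of 0.60 with 31 above 0, and the list of interferon gamma and antigen presentation genes (22 genes) 0.48 with 20 above 0. Nucleic acid sensors and adaptors (10 genes) had -0.30 and receptors and kinases (12 genes) -0.06. The mean of the 9 followed the summed markers of red cells at r = -0.59, of smooth muscle and pericytes at -0.50, of neutrophils at -0.45, of macrophages at -0.34 and of endothelium at -0.13, all within groups. For fibroblasts r was 0.09, for T cells 0.28, for B and plasma cells 0.38 and for cardiomyocytes 0.53. Each sum is led by its brightest genes, as by Des (r = -0.617) for smooth muscle. Single markers at a level of 5 or more had a median r of 0.12 for smooth muscle and pericytes (7 of 12 positive). The median was 0.19 for endothelium (7 of 11), 0.09 for cardiomyocytes (8 of 9) and 0.37 for fibroblasts (7 of 9). It was -0.46 for red cells (0 of 6), -0.43 for neutrophils (2 of 5) and -0.21 for macrophages (2 of 13). T cells had 0.2 and B cells 0.15. Of 6 markers of plasmacytoid dendritic cells only Tcf4 and Bst2 were measured (r = 0.76), and Bst2 is itself interferon-stimulated. What these cell types contribute to the shared swings was not tested.

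**Figure D4:**
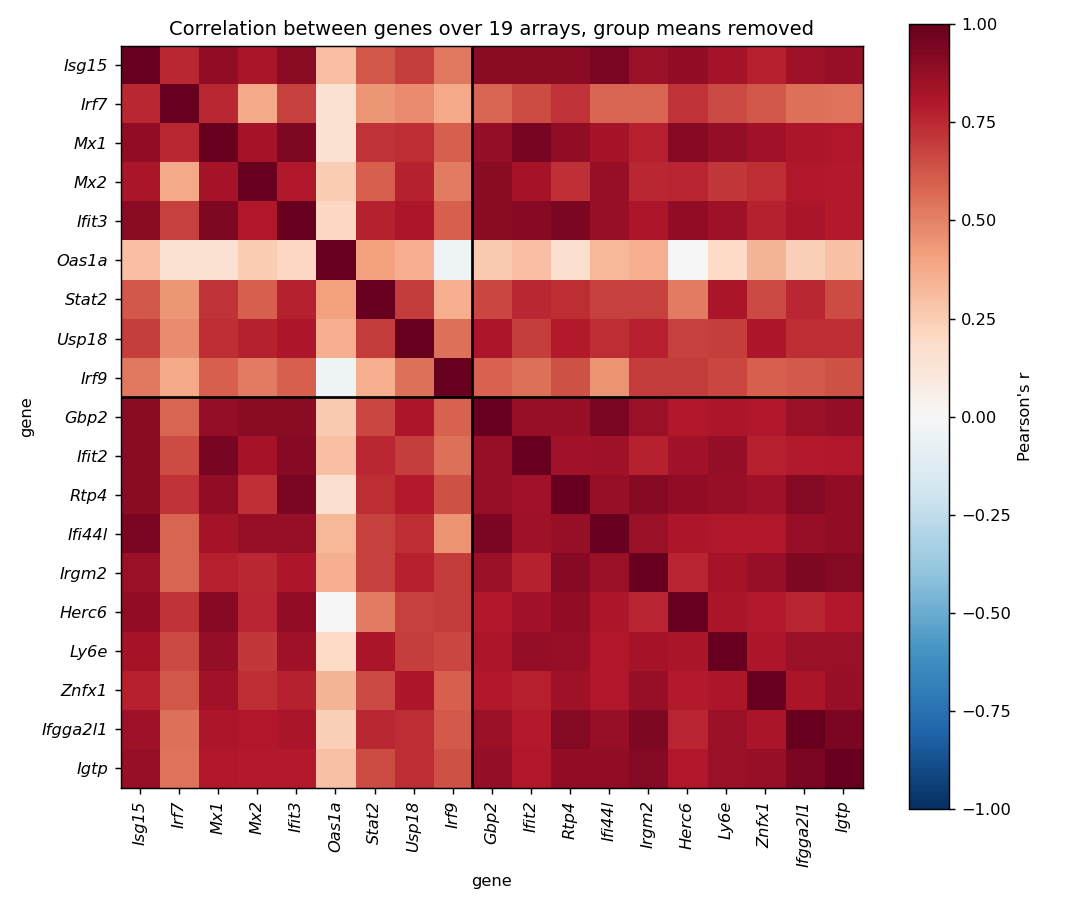
Pearson's r between genes over the 19 arrays after removing group means, for the 9 genes (first block) and the 10 genes most like their mean (second block), from -1 (blue) to 1 (red). Nearly all cells are red, and the Oas1a row is the palest, with a mean r of 0.22 with the other 8.

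In paricalcitol against vehicle, differences of the 10 most similar genes ran from -0.32 (Herc6) to 0.08 (Gbp2), where the 9 genes had a median of -0.42. Gbp2 had a mean of 7.88 in paricalcitol, against 7.80 in vehicle, a difference of 0.08 (SE 0.19). Ifit2 gave -0.09 (SE 0.24), Rtp4 -0.21 (SE 0.37) and Herc6 -0.32 (SE 0.34). Over the 41 measured of 58 other genes induced by type I interferon, 25 were lower in paricalcitol than in vehicle (45.9% of all genes were). Their median was -0.05, and none passed (0.0141% of all genes did). In the interferon gamma and antigen presentation list 6 of 22 were lower, with a median of 0.09. Whether the 9 genes differ from these lists was not tested, and the 9 were named with results of these arrays already known.

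Upstream of the 9 genes, 3 of 11 listed interferons were measured (Ifnb1, Ifng and Ifnk), and the others, the alpha interferons among them, are not analysed here. Ifnb1, interferon beta, was at the floor on all 19 arrays, and Ifng, interferon gamma, had a mean level of 4.34, with 4.69 as its highest value. The type I receptor chain Ifnar1 was at 7.66 ± 0.07 in paricalcitol, 7.48 ± 0.12 in enalapril and 7.53 ± 0.12 in the combination, against 7.32 ± 0.17 in vehicle and 7.68 ± 0.04 at baseline (SD, n = 4, enalapril n = 3). Its difference in paricalcitol against vehicle was 0.33 (SE 0.08, adjusted p = 0.181), opposite in sign to 8 of the 9 genes, and in vehicle against baseline -0.36 (SE 0.08, adjusted p = 0.138). Ifnar2, the other chain, gave 0.16 (SE 0.11) and -0.12 (SE 0.11). Of the receptor kinases, Tyk2 gave -0.54 (SE 0.18, adjusted p = 0.33) in vehicle against baseline and 0.11 (SE 0.18) in paricalcitol against vehicle, and Jak1 -0.08 and 0.06 (SE 0.06 each). Mavs, the adaptor of the RNA sensors, was at 10.15 to 10.29 in vehicle, against 9.60 to 9.81 at baseline, a difference of 0.54 (SE 0.12, adjusted p = 0.13). In paricalcitol against vehicle Mavs gave -0.24 (SE 0.12, adjusted p = 0.563), the same sign as 8 of the 9 genes. Tlr7, a sensor of single-stranded RNA, Ifih1, a sensor of double-stranded RNA, and Irf3, the factor that starts interferon production, had differences in paricalcitol against vehicle of -0.20 (SE 0.22), 0.18 (SE 0.17) and 0.35 (SE 0.20). None of these genes passed in any comparison.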

How the data were processed

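RNA from the left ventricle of 19 rats was hybridised as biotin-labelled cRNA, made from 5 ug of total RNA, to Affymetrix arrays, per the labels' protocols. The authors deposited 1 linear intensity per probe set and array; values below 0 show that a background had been subtracted, and the software is not given in the sources used here. The deposited intensities were quantile normalised, negative values were raised to 0, and 16 was added before taking log2. Of 31099 probe sets 20826 named 1 gene, and the probe set with the highest mean stood for each of 14217 genes. Group means over all 19 arrays were compared in limma 3.58.1 under R 4.3.3 (trend on mean level, Benjamini-Hochberg adjustment, threshold 0.05) and tested on simulated data with 200 shifted genes. Alternatives were other normalisations, pseudocounts, filters, variance priors, array weights, probe set rules, only the groups compared, a replicate block and each array left out in turn.

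The 9 genes and the lists were chosen with earlier results of these data known. All 9 genes are named, with genes upstream of them chosen for their role and the 10 genes most correlated with their mean. Single genes of other lists in the closing observations were chosen after their values were seen. Arrays of equal replicate number were compared by their deviations from group means: all correlations were above 0.1 in 1 of 10 pairs of groups, and the labels do not pair the rats.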

Additional observations from a re-analysis of the deposited data

Results flagged for a closer look

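Stat2 in combination rat 1 was at 7.64, where the other 3 combination rats lay between 7.96 and 7.99. Its gap to the nearest of them was 0.915 of the group's range, above Dixon's 95% critical value for 4 samples. In all, 40 groups of values were examined in this way, of which 1 stood out, and chance gives about 1 in 20. The same rat had 0 of the 9 genes above their means over all arrays.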

How the results depend on the processing

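None of the 9 genes passed in any of the 10 comparisons or in the F test under the 12 other settings or after any array was left out. The smallest adjusted p among them was 0.0798 for paricalcitol against vehicle and 0.12 for the combination against paricalcitol, both for Usp18 with each array centred on its median. Leaving out dimmer genes removed Mx2 and Oas1a from the test. Of 1816 single differences recomputed, 97 had the other sign. The median of the 9 genes in paricalcitol against vehicle ran from -0.56 to -0.25 over all of these, and Usp18 from -1.09 to -0.75. The median in vehicle against baseline ran from -0.18 to 0.16, and in enalapril against vehicle from -0.08 to 0.27, so neither has a settled sign. With the replicate block the medians were -0.42 in paricalcitol against vehicle (smallest adjusted p = 0.244) and 0.27 in the combination against paricalcitol (smallest adjusted p = 0.268), and 0 of the 9 genes passed in any comparison. Over all genes the block gave 14 passing in paricalcitol against vehicle in place of 2, and median centring gave 71. Equal replicate numbers correlated from -0.14 to 0.33. With 3 or 4 rats a group, 95% intervals over 1 log2 unit wide limit what can be seen for Mx1, Mx2, Ifit3, Isg15 and Usp18. Those of Irf7 and Oas1a were also over 1 unit wide in comparisons with the enalapril group.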

Other observations

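Other interferon-inducible genes ran lower on average in the older groups than at baseline, where rat 3 stood high. In vehicle against baseline 37 of 41 measured genes of the type I list were lower (48% of all genes were), with a median of -0.22, where the 9 genes had 0.03. In paricalcitol against baseline 37 were lower (47.5% of all genes were), with a median of -0.20. In the combination 36 were lower (46.8% of all genes), with a median of -0.19, and in enalapril 32 (47.3% of all genes), with a median of -0.12. None passed in limma, where 0.0141% to 0.162% of all genes passed in these 4 comparisons. The mean deviation of this list was 0.07, 0.03, 0.46 and 0.12 in baseline rats and -0.34, 0.12, 0.05 and -0.11 in vehicle rats, so these groups overlapped. Most of its genes followed the mean of the 9 within groups (median r 0.60), so the counts are not of independent genes. All 4 comparisons share the baseline rats, and cohort and age cannot be told apart from treatment. Among single genes, Ifitm1, which restricts virus entry, gave -0.63 (SE 0.21, adjusted p = 0.32) in vehicle against baseline, and Ddx60, a helicase, -0.72 (SE 0.26, adjusted p = 0.382). The chemokine Cxcl10 gave -0.82 (SE 0.26, adjusted p = 0.296). In deposited values without equalisation the median of all genes in this comparison was itself -0.20, so the size of the shift depends on the scaling. These genes were picked for their small p-values.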
